A study of Mus musculus with 48 samples.

Results

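The cerebral cortex of wild-type (WT) mice was compared between 1 month and 6 months of age. These samples are the WT columns of the deposited expression table at the 2 ages, 6 mice at 1 month and 6 other mice at 6 months, and make up 12 of the 48 samples of the series. The rest are WT mice at E14.5 and 12 months and *Chd8* V986*/+ mice, heterozygous for a stop codon in the chromatin remodeler gene *Chd8*, at all 4 ages. All mice were male and on the C57BL/6J background. The WT mice were littermate controls of the V986* line, and the cortex of 1 hemisphere was taken from each mouse. The WT mice carried no engineered allele and received no treatment, so the comparison is one of age. Each mouse gave 1 sample at 1 age, so no animal was followed over time.

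At 1 month the mouse has been weaned but the cortex is still maturing, and at 6 months it is that of a young adult. Over this time oligodendrocyte precursors continue to give rise to oligodendrocytes, which wrap axons in myelin, while the division of cells and the outgrowth of neurites that build the cortex are largely over. Neurons meanwhile stabilise their synapses within an extracellular matrix of lecticans, hyaluronan and link proteins, and the blood vessels and meninges, the membranes on the surface of the brain, lay down collagen and elastin.

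Expression is given as variance-stabilizing transformation (VST) values from DESeq2, on a log_2_ scale. A difference of 1 comes close to a 2-fold change where expression is high. It falls short of the real change near the floor of the scale, 2.14, the most frequent value in the table. VST values are not corrected for transcript length, so levels are compared between mice and not between genes. A gene was called differentially expressed when its limma *p* value, adjusted by Benjamini-Hochberg (adjp), was below 0.1, and differences are 6 months minus 1 month. In whole cortex, fewer cells of a type and less RNA per cell cannot be told apart.

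Age was the largest source of variation among the 12 mice. The first principal component, with 24% of the variance, placed the 1-month mice between −24.3 and −9.8 and the 6-month mice between 12.1 and 19.4. One mouse, WT 1-month replicate 5, stood apart on the second component, at −29.2, and had the fewest aligned reads of the 12 samples. The 6 markers of cortical excitatory neurons and forebrain used to check the tissue (among them *Slc17a7*, *Neurod6*, *Emx1* and *Tbr1*) were at 8.03 or higher in all 12 mice. Another mouse, WT 1-month replicate 1, had cerebellar transcripts, as given with the markers of other brain regions.

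Of 17255 genes tested, 4242 (24.6%) differed between the ages, 2122 (12.3%) higher and 2120 (12.3%) lower at 6 months. Most changes were small. The median absolute difference of the called genes was 0.24, and 36 genes rose and 60 fell by 1 or more. The median difference of all genes was 0.01. The 6 mice of one age did not overlap the 6 of the other in 1461 genes (8.47% of those tested), 640 higher (3.71%) and 821 lower (4.76%) at 6 months. The plot of all genes shows that the largest differences were falls.

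**Figure D1:**
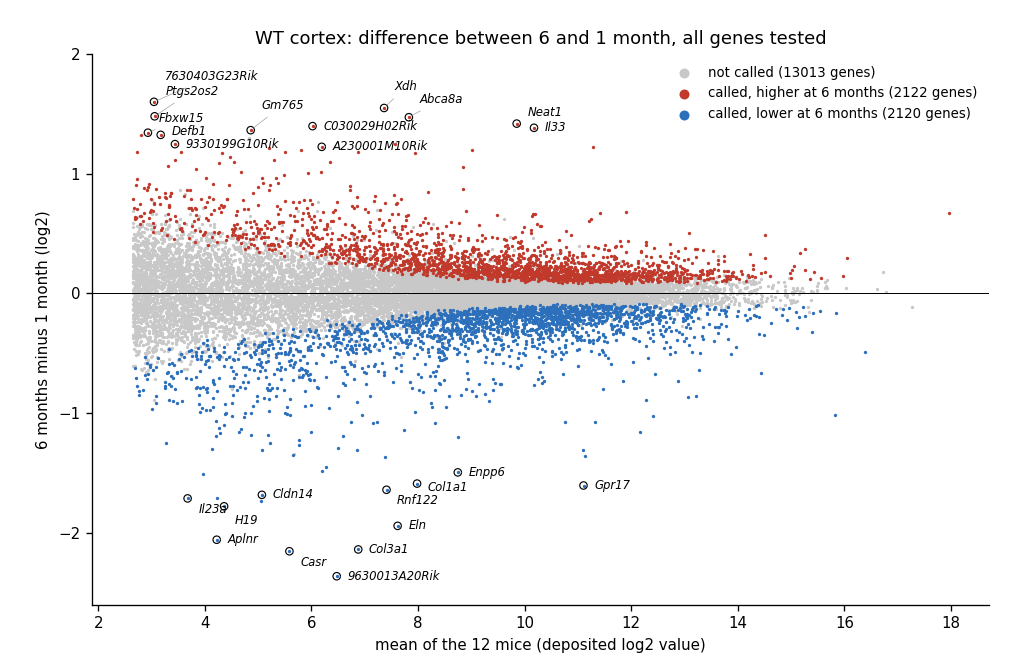
The difference between 6 and 1 month (log2 scale) is plotted for each of the 17255 genes tested against its mean over the 12 WT mice. Red and blue points are the 2122 and 2120 genes called higher and lower at 6 months, and the circled genes are the 12 largest rises and 12 largest falls on this scale without overlap of the mice, with 9630013A20Rik lowest at −2.36. The circled rises at the left edge are the 5 genes at or near the floor at 1 month, whose heights are not measured fold-changes.

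The largest fall was that of *9630013A20Rik*, a noncoding RNA gene. Its VST expression ranged from 7.44 to 7.83 (median 7.71) in the 1-month mice and from 4.87 to 5.49 (median 5.36) in the 6-month mice, a difference of −2.36 (SE 0.11, limma adjp = 1.32e-09). Both ranges were narrow against the gap between them. It was also the only gene called between 6 and 12 months, where it was lower again.

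Several of the other large falls belonged to receptors and secreted proteins. *Casr*, the calcium-sensing receptor (chromosome 16, 36493782 to 36562227, mm9), went from a range of 6.29 to 7.10 (median 6.70) to one of 3.67 to 5.49 (median 4.27), with a difference of −2.15 (SE 0.27, limma adjp = 5.0e-05). *Aplnr*, the apelin receptor of vessels, fell by 2.06 (SE 0.18, limma adjp = 1.25e-06). *Il23a*, a subunit of the cytokine IL-23, fell by 1.71 and *Cldn14*, a tight junction claudin, by 1.68. *Rnf122*, a RING finger gene, was at 8.23 ± 0.17 (SD, *n* = 6) at 1 month and 6.59 ± 0.16 (SD, *n* = 6) at 6 months. In each of these genes every 6-month mouse was below every 1-month mouse. *Aplnr* and *Il23a* approached the floor at 6 months, at means of 3.19 and 2.82, so that the scale understates their falls.

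*Col3a1*, *Col1a1*, *Eln*, *H19*, *Gpr17* and *Enpp6*, the remaining genes among the 12 largest falls, are described with their groups below. *H19*, an imprinted noncoding RNA of growing tissue, was highest in 1 mouse. Its 1-month values ran from 4.43 to 7.21 (median 4.99), the highest being replicate 5, against 2.98 to 3.92 (median 3.48) at 6 months.

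Among the rises, *Abca8a*, an ATP-binding cassette lipid transporter, had a 1-month range of 6.65 to 7.39 (median 7.16) and a 6-month range of 8.31 to 8.67 (median 8.61), a difference of 1.47 (SE 0.11, limma adjp = 1.08e-07). *Xdh*, xanthine dehydrogenase of purine breakdown (chromosome 17, 74233248 to 74299522, mm9), rose by 1.55 (SE 0.17, limma adjp = 1.32e-05), from 6.12 to 6.83 (median 6.65) to 7.70 to 8.73 (median 8.02). *Neat1*, the noncoding RNA that scaffolds nuclear paraspeckles, rose by 1.42 (SE 0.14), from 9.14 ± 0.38 to 10.56 ± 0.19 (SD, *n* = 6 each). These 3 genes were expressed well above the floor at both ages, and in each the mice of the 2 ages did not overlap.

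*Il33*, an alarmin cytokine that is held in the nuclei of oligodendrocytes and astrocytes (chromosome 19, 29999604 to 30035194, mm9), had the smallest error among the large rises. It ranged from 9.31 to 9.81 (median 9.43) at 1 month and from 10.72 to 10.98 (median 10.87) at 6 months, a difference of 1.38 (SE 0.07, limma adjp = 1.46e-09). *C030029H02Rik*, *Gm765* and *A230001M10Rik*, whose functions are not known to a degree that can be given here, rose by 1.40, 1.36 and 1.2. For *7630403G23Rik*, *Ptgs2os2*, *Fbxw15*, *Defb1* and *9330199G10Rik*, the 1-month means were 2.25, 2.32, 2.26, 2.51 and 2.82, at or near the floor, and the 6-month means were 3.84, 3.80, 3.60, 3.83 and 4.06. No fold-change is given for these 5 genes, whose differences on this scale rest on values close to the floor. *9330199G10Rik* was above the floor in 5 of the 1-month mice, at 2.75 to 3.15, and its lowest 6-month mouse was at 3.19.

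The early oligodendrocyte lineage had the highest share of falls among the 35 gene lists examined. Over all genes tested, 12.3% were called in each direction, the share against which each list count is read. Of 25 tested genes of oligodendrocyte precursors and newly formed oligodendrocytes, 21 fell and none rose, with a median difference of −0.41. The mean of these 25 genes ranged from 9.44 to 9.70 in the 1-month mice and from 8.99 to 9.10 in the 6-month mice, without overlap. *Gpr17*, a receptor of precursors committed to differentiate, was at 11.63 to 12.17 (median 11.89) at 1 month and at 10.13 to 10.54 (median 10.30) at 6 months, a difference of −1.60 (SE 0.08, limma adjp = 1.45e-09). *Gpr17* overlaps *Lims2* on the other strand. The methods describe stranded libraries and the labels a kit without strand, so the shares of these genes are uncertain.

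*Enpp6*, an enzyme of newly formed oligodendrocytes (chromosome 8, 48072279 to 48180249, mm9), fell by 1.49 (SE 0.07, limma adjp = 5.88e-10). Its 1-month values of 9.40 to 9.63 (median 9.48) and 6-month values of 7.86 to 8.22 (median 7.97) had narrow ranges at both ages. *Kif19a*, a kinesin gene, fell by 1.31 (SE 0.12). The markers of the precursor cell itself changed less. *Pdgfra*, the receptor for the mitogen PDGF, fell by 0.29 (SE 0.04, limma adjp = 0.000116), and *Cspg4*, the NG2 proteoglycan, fell by 0.38 (SE 0.06, limma adjp = 0.000263).

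Genes of mature oligodendrocytes and myelin moved in both directions. Of 33 tested, 15 fell and 11 rose, so 26 were called against a background of 24.6%. The median difference was −0.04, and it was −0.08 without WT 1-month replicate 1 and −0.10 without WT 1-month replicate 5. The falls included proteins of the myelin sheath. *Mog*, a glycoprotein of the outer myelin surface, was at 11.11 to 11.56 (median 11.27) at 1 month and at 10.12 to 10.41 (median 10.21) at 6 months, a difference of −1.07 (SE 0.07, limma adjp = 1.71e-08). *Mbp*, myelin basic protein, also fell (−0.49, SE 0.07), as did *Cldn11*, the claudin of myelin tight junctions (−1.16, SE 0.06). *Gsn*, the actin-severing protein gelsolin, fell by 1.36 (SE 0.05, limma adjp = 6.23e-11), the smallest adjp of all genes.

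The rises in the same list were led by *Il33*. *Anln*, a septin- and actin-binding scaffold protein, went from a range of 9.74 to 9.96 (median 9.87) to one of 10.12 to 10.61 (median 10.39), a difference of 0.52 (SE 0.07, limma adjp = 4.38e-05). *Qdpr*, dihydropteridine reductase of biopterin metabolism, rose by 0.43 (SE 0.05), and *Hapln2*, the link protein of the nodes of Ranvier, by 0.43 (SE 0.09, limma adjp = 0.00303). The plot of oligodendrocyte genes by mouse shows both directions side by side.

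**Figure D2:**
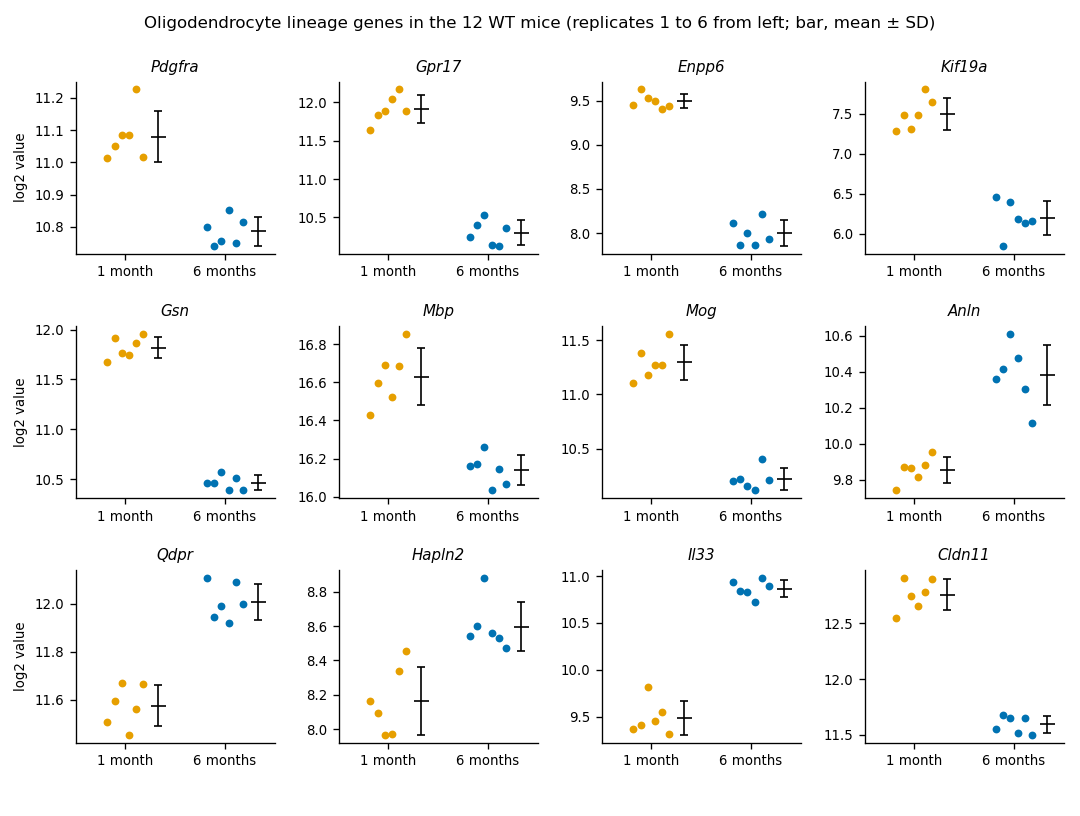
VST values (log2 scale, a separate axis range for each gene) of 12 oligodendrocyte lineage genes in the 6 WT mice at 1 month (orange) and the 6 at 6 months (blue), with the mean ± SD as bars. Gpr17, Enpp6, Kif19a, Gsn, Mog and Cldn11 fell by 1 or more, Pdgfra and Mbp fell by 0.29 and 0.49, and Anln, Qdpr, Hapln2 and Il33 rose, with no overlap of the ages in any of the 12.

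Myelin is rich in cholesterol, and genes of cholesterol synthesis also split. Of 23 tested, 7 fell and 4 rose. *Tm7sf2*, *Ebp* and *Dhcr7*, enzymes of the late steps, fell by 0.42, 0.32 and 0.31 (SE 0.07, 0.06 and 0.06). *Insig1*, which retains the sterol sensor in the endoplasmic reticulum, rose by 0.39 (SE 0.07, limma adjp = 0.000611).

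Cell cycle genes were lower at 6 months. Of 40 tested, 21 fell and none rose, against 12.3% of all genes called lower, and the median difference was −0.38. *Top2a*, the topoisomerase of dividing cells, had a 1-month range of 6.23 to 7.36 (median 7.14) and a 6-month range of 5.29 to 5.91 (median 5.57), a difference of −1.45 (SE 0.17, limma adjp = 2.54e-05). *Mki67*, the proliferation marker Ki-67 (−1.19, SE 0.12), *Cdk1*, the mitotic kinase (−1.19, SE 0.19), and *Cenpf*, a kinetochore protein (−1.35, SE 0.15), fell with it. In 14 of the 40 genes every 6-month mouse was below every 1-month mouse, against 4.76% of all genes tested.

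Genes of immature neurons and neurite outgrowth behaved alike. Of 36 tested, 24 fell and 1 rose, with a median difference of −0.21. Their mean lay between 11.33 and 11.35 in all 6 of the 1-month mice and between 10.99 and 11.08 in the 6-month mice. *Marcksl1*, a regulator of the actin cytoskeleton, was at 11.72 to 11.83 (median 11.74) at 1 month and at 10.15 to 10.67 (median 10.42) at 6 months, a difference of −1.31 (SE 0.07, limma adjp = 1.45e-09). *Igfbpl1* fell by 1.23 (SE 0.16), *Draxin*, an axon guidance cue, by 0.88 (SE 0.14), and *Sox11*, a transcription factor of newborn neurons, by 0.40 (SE 0.11, limma adjp = 0.0226).

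*Dcx*, doublecortin of migrating neurons, differed by −0.21 (SE 0.12, limma adjp = 0.262), and its mice overlapped. *Cntn2*, an axonal adhesion molecule, was the gene that rose (0.22, SE 0.05, limma adjp = 0.00265). Among cytoskeletal genes of axons, 4 of 20 rose and 3 fell, against 12.3% of all genes in each direction. *Nefh*, the heavy neurofilament subunit, rose by 0.32 (SE 0.07, limma adjp = 0.00409), while the tubulins *Tuba1a* and *Tubb5* fell by 0.38 and 0.17 (SE 0.05 and 0.04). Without WT 1-month replicate 1, 2 rather than 4 of these genes were called higher.

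The machinery that writes and removes DNA methylation changed in both directions. Neurons gain methylation outside CpG sites during the weeks after birth, a mark placed by the methyltransferase *Dnmt3a*. *Dnmt3a* (chromosome 12, 3806007 to 3914443, mm9) went from 11.67 to 11.87 (median 11.74) to 11.12 to 11.37 (median 11.25), a difference of −0.51 (SE 0.05, limma adjp = 1.94e-06). Of 16 genes of this group, 6 fell and 4 rose, and the 2 ages did not overlap in *Dnmt3a*.

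*Tdg*, the glycosylase that completes demethylation, fell by 0.49 (SE 0.06), and *Uhrf1*, which brings maintenance methylation to replicating DNA and is also a cell cycle gene, by 0.76 (SE 0.14). *Gadd45b*, a stress- and activity-induced gene linked to demethylation, rose by 0.60 (SE 0.12, limma adjp = 0.00254). *Dnmt1*, the maintenance methyltransferase, differed by −0.03 (SE 0.05, limma adjp = 0.713).

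Collagens fell broadly. Of 41 tested, 21 fell and 1 rose, and the median difference was −0.35. The falls numbered 18 without WT 1-month replicate 1 and also 18 without WT 1-month replicate 5. *Col3a1*, the fibrillar collagen of vessel walls and meninges (chromosome 1, 45368383 to 45406551, mm9), ranged from 7.05 to 8.42 (median 8.16) at 1 month and from 5.21 to 6.25 (median 5.87) at 6 months, a difference of −2.14 (SE 0.22, limma adjp = 6.39e-06). *Col1a1* and *Col1a2*, the chains of type I collagen, differed by −1.59 (SE 0.18) and −1.20 (SE 0.16), and *Eln*, elastin of elastic fibres, by −1.94 (SE 0.19, limma adjp = 2.88e-06). The gene that rose was *Col2a1* (0.70, SE 0.17, limma adjp = 0.00981), the collagen of cartilage.

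Markers of meningeal fibroblasts and of blood were also lower at 6 months. Of 20 meningeal genes, 6 fell and none rose, and 4 of the 6 were *Col3a1*, *Col1a1*, *Col1a2* and *Igf2*. The mean of the 20 genes ranged from 7.90 to 8.70 at 1 month and from 7.72 to 8.22 at 6 months, with overlap. Of 13 blood genes, 7 fell, and their mean was 5.94 to 6.53 at 1 month and 5.36 to 6.18 at 6 months. These 7 were 6 haemoglobin genes, among them *Hba-a2* (−0.64, SE 0.18), which are near-identical copies whose reads could be split between them, and *Slc4a1*, the anion exchanger of red cells (−0.78, SE 0.21, limma adjp = 0.0165). The part of meninges or blood left on the dissected tissue in the falls of the collagens was not tested.

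The growth factor gene *Igf2*, which is imprinted and expressed in meninges and vessels, fell by 0.67 (SE 0.16, limma adjp = 0.0068). In the imprinted list of 31 tested genes, 6 fell and 4 rose, against 12.3% of all genes in each direction. *Mkrn3* fell by 0.79 (SE 0.16). *Rasgrf1*, a Ras activator of neurons, rose by 0.38 (SE 0.06, limma adjp = 0.00036), and *Nap1l5* by 0.19 (SE 0.04).

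Of 26 endothelial and mural genes, 8 fell and 1 rose. *Mfsd2a*, the lipid transporter of the blood-brain barrier, differed by −0.81 (SE 0.19, limma adjp = 0.00772), although WT 6-month replicates 2 and 3, at 9.53 and 9.84, lay within the 1-month range of 9.49 to 10.15. *Cldn5*, the main claudin of brain endothelium, fell by 0.58 (SE 0.15, limma adjp = 0.011), and *Kdr*, the VEGF receptor 2, by 0.50 (SE 0.15). *Flt1*, the VEGF receptor 1, was higher by 0.29 (SE 0.10, limma adjp = 0.0501), a call that was lost without WT 6-month replicate 2 (limma adjp = 0.102). *Pecam1*, a general endothelial adhesion molecule, differed by 0.09 (SE 0.10, limma adjp = 0.59).

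In the matrix around neurons, 13 of 28 genes fell and 3 rose. The list is not separate from those above, as *Hapln2* and *Adamts4* are also in the mature oligodendrocyte list and *Tnr* and *Vcan* in the precursor list. *Tnc*, tenascin C of developing tissue, fell by 1.07 (SE 0.16, limma adjp = 0.000225). *Hapln1*, a link protein that ties lecticans to hyaluronan, was at 10.43 to 10.73 (median 10.60) at 1 month and at 9.67 to 10.16 (median 9.85) at 6 months, a difference of −0.71 (SE 0.08, limma adjp = 1.42e-05). *Adamts4*, a protease that cleaves lecticans, fell by 0.75 (SE 0.06) and its substrate *Bcan*, brevican, by 0.32 (SE 0.06).

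By contrast, *Hapln4*, the link protein of inhibitory synapses and axons, rose by 0.36 (SE 0.08, limma adjp = 0.00527), as did the protease gene *Adamts1* (0.37, SE 0.08). *Acan*, aggrecan, the core lectican of perineuronal nets, differed by 0.06 (SE 0.11, limma adjp = 0.74), a value that fell to zero without WT 1-month replicate 3.

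The gene lists are set side by side in the plot of called shares.

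**Figure D3:**
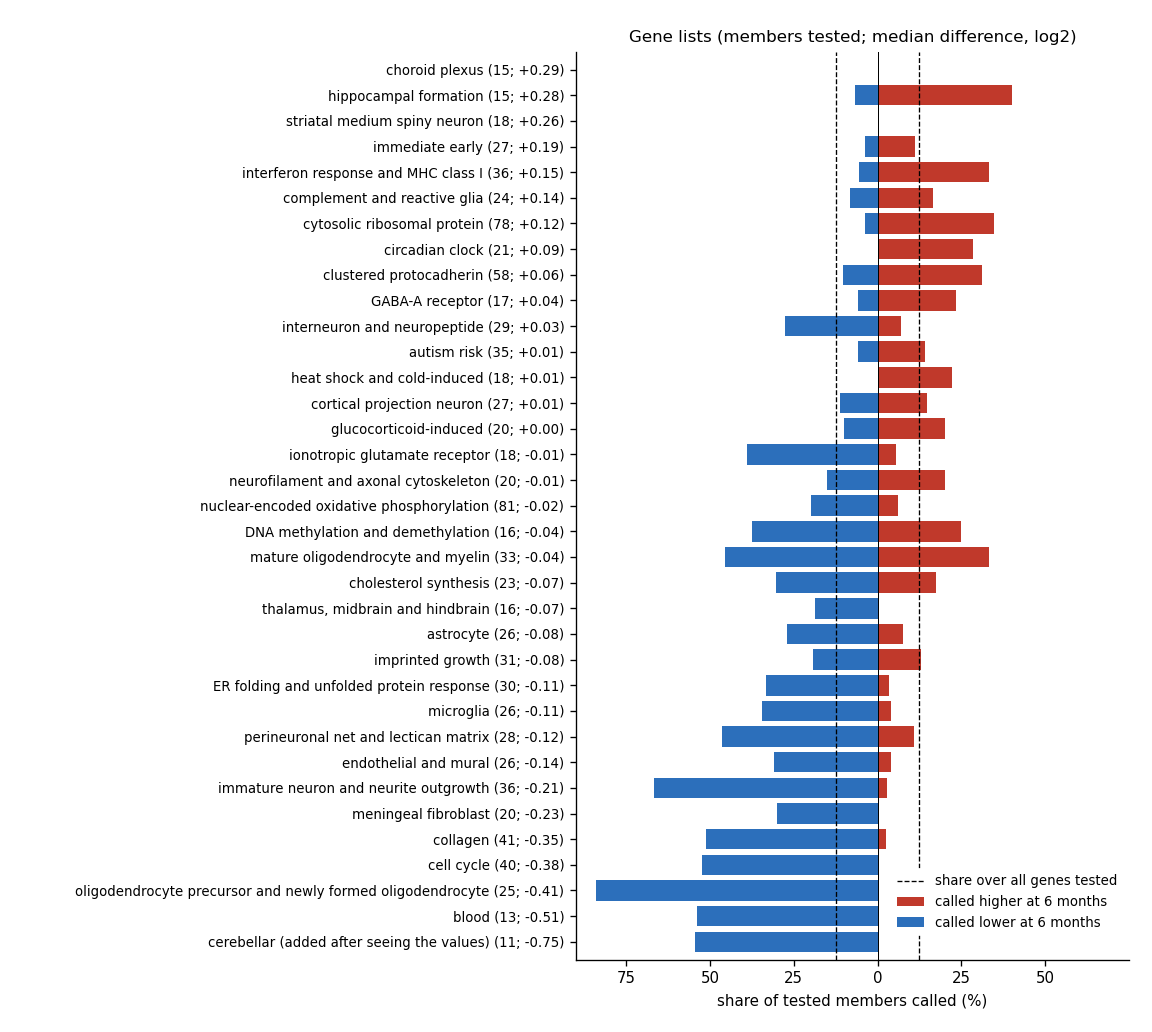
Share of the tested members of each of 35 gene lists (in %) that limma called higher (red) or lower (blue) at 6 months, ordered by median difference, with the number tested and the median difference (log2 scale) beside each name. The dashed lines mark 12.3% in each direction, the share over all genes tested. Oligodendrocyte precursor, immature neuron, cell cycle and collagen genes were called lower in 21 of 25, 24 of 36, 21 of 40 and 21 of 41 cases.

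Immune genes of the interferon response and of class I antigen presentation rose more often than they fell. Of 36 tested, 12 rose and 2 fell, with a median difference of 0.15. Without WT 1-month replicate 5, 10 rose and the median was 0.11. The mean of the 36 genes ranged from 6.57 to 6.88 at 1 month and from 6.63 to 7.06 at 6 months, with overlap. Class I molecules display peptides that are cut by the immunoproteasome and brought into the endoplasmic reticulum by the TAP transporter. *H2-K1*, a class I heavy chain (chromosome 17, 34132962 to 34137278, mm9), was at 8.34 to 8.71 (median 8.62) at 1 month and at 8.91 to 9.17 (median 9.01) at 6 months, a difference of 0.48 (SE 0.07, limma adjp = 0.000268). *Tap2*, a TAP subunit, rose by 0.66 (SE 0.08, limma adjp = 4.63e-05), from 7.18 ± 0.17 to 7.84 ± 0.09 (SD, *n* = 6 each). Class I genes are a family of near-identical copies, so the share of reads given to *H2-K1* is uncertain.

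Interferon-induced genes outside this pathway followed in part. *Xaf1*, a factor that promotes cell death, rose by 0.67 (SE 0.13, limma adjp = 0.00177), and *Ifit3*, an antiviral protein, by 0.60 (SE 0.12, limma adjp = 0.00278). *Ifi44* instead fell by 0.61 (SE 0.18, limma adjp = 0.0224), without overlap of the mice. Interferons act on many such genes through the interferon-stimulated response element, searched here as GAAA, 2 bases of any kind and GAAA, or the reverse complement (TTTC, 2 bases, TTTC), in promoters of 300 bases that span the start (RefSeq, GRCm38.p6). The element was in a promoter of 3.99% of the 27025 genes searched, and of 14 of the 27 genes of the list that matched the promoter table. Of 10 matched genes that rose, 3 held it. Their promoters are shown 5′ to 3′ with the element in capitals, beside that of *H2-K1*, which held no exact match to this pattern in this window. The *H2-K1* promoter does hold the similar letters tttcacttct, and looser forms of the element were not searched. *Ifit3* (chr19:34583279-34583578) is on the plus strand, *Gbp2* (chr3:142620413-142620712) on the plus strand, *Ifih1* (chr2:62646206-62646505) on the minus strand and *H2-K1* (chr17:34000298-34000597) on the minus strand.
Ifit3: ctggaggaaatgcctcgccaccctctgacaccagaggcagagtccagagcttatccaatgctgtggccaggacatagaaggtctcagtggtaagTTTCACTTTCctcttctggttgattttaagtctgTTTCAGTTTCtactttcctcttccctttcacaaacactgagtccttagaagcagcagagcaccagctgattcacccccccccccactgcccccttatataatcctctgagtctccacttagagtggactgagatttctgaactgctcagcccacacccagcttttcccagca
Gbp2: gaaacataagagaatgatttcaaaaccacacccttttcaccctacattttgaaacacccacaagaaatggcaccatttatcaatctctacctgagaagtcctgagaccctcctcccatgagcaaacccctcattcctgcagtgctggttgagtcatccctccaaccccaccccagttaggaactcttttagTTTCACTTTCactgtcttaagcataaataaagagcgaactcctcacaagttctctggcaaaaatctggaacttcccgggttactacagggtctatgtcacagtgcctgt
Ifih1: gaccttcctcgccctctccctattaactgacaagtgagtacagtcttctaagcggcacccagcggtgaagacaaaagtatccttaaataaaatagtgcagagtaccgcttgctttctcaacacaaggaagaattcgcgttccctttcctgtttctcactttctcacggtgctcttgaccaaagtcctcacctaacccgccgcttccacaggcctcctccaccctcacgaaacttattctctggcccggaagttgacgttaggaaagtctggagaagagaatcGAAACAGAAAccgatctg
H2-K1: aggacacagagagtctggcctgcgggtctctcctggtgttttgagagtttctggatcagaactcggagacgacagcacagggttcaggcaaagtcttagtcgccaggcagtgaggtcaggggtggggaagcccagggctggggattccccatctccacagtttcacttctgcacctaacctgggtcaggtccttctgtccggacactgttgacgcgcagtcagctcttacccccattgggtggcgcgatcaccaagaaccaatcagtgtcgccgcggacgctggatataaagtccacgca

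*Gbp2* and *Ifih1* are named for these letters, after their values were seen. *Ifih1*, a sensor of double-stranded viral RNA, rose by 0.37 (SE 0.08, limma adjp = 0.00476). *Gbp2*, a guanylate-binding protein, was higher by 0.49 (SE 0.18, limma adjp = 0.076), a call that was lost in 7 of the 12 fits without 1 mouse (limma adjp = 0.101 to 0.167). *Ifit3* carried the element at 2 places and the other pair at 1 place each. A match describes the letters and not a bound site.

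Several complement genes rose. *C4b*, the complement component C4 (chromosome 17, 34865325 to 34880827, mm9), ranged from 8.01 to 8.58 (median 8.37) at 1 month and from 8.99 to 9.56 (median 9.44) at 6 months, a difference of 1.06 (SE 0.10, limma adjp = 2.88e-06). *C3*, the component on which the complement pathways converge, rose by 0.90 (SE 0.25, limma adjp = 0.0196), and *C1ra*, a protease of the first component, by 0.55 (SE 0.14, limma adjp = 0.0119). In the list of complement and reactive glia, 4 of 24 genes rose and 2 fell, near the background of 24.6%, with 1 rather than 2 falls without WT 1-month replicate 1 or 5. The larger fall was that of the tetraspanin *Cd9* (−0.34, SE 0.05).

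Genes of microglia and astrocytes did not rise with them. Of 26 microglial genes, 9 fell and 1 rose, with a median difference of −0.11. The falls numbered 8 without WT 1-month replicate 1 and 6 without WT 1-month replicate 5. *Fcrls*, a scavenger receptor-like gene of microglia, fell by 0.48 (SE 0.06, limma adjp = 5.87e-05), and the homeostatic markers *Tmem119*, *Cx3cr1* and *P2ry12* by 0.26, 0.25 and 0.25 (SE 0.07, 0.07 and 0.08). *Ctss*, the lysosomal protease cathepsin S, rose by 0.21 (SE 0.05, limma adjp = 0.00464).

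Of 26 astrocyte genes, 7 fell and 2 rose, the latter none without WT 1-month replicate 1. *Aqp4*, the water channel of astrocyte endfeet, was at 12.37 to 12.71 (median 12.64) at 1 month and at 11.94 to 12.20 (median 12.00) at 6 months, a difference of −0.54 (SE 0.06, limma adjp = 1.37e-05). *Ntsr2* and the gap junction gene *Gja1* fell by 0.35 (SE 0.05) and 0.31 (SE 0.05). *Gfap*, the filament of reactive astrocytes, was lower by 0.22 (SE 0.07, limma adjp = 0.049), and its call was lost without WT 1-month replicate 3 (limma adjp = 0.11) or WT 6-month replicate 2 (limma adjp = 0.102).

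Genes of mature neurons changed by small amounts. Of 27 projection neuron genes, 4 rose and 3 fell, near the background of 12.3% in each direction, and 1 rather than 4 were called higher without WT 1-month replicate 1 and 2 without WT 1-month replicate 5. *Slc17a7*, the vesicular glutamate transporter, fell by 0.19 (SE 0.05, limma adjp = 0.0182), *Cux2*, a transcription factor of upper layers, by 0.22 (SE 0.05), and *Nrgn*, a calmodulin-binding postsynaptic protein, by 0.29 (SE 0.07, limma adjp = 0.0108). *Chd8* itself was at 11.72 ± 0.12 and 11.75 ± 0.02 (SD, *n* = 6 each), a difference of 0.03 (SE 0.05, limma adjp = 0.723).

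Of 18 ionotropic glutamate receptor genes, 7 fell and 1 rose, and 4 rather than 7 fell without WT 1-month replicate 5. *Gria1*, an AMPA receptor subunit, rose by 0.27 (SE 0.06, limma adjp = 0.00633), from a range of 13.41 to 13.74 (median 13.64) to one of 13.75 to 14.06 (median 13.86). *Gria2* differed by 0.08 (SE 0.05, limma adjp = 0.34). *Grin3a*, an NMDA receptor subunit of juvenile synapses, fell by 0.28 (SE 0.06, limma adjp = 0.00359), and *Grin2c*, which astrocytes also express, by 0.26 (SE 0.08).

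On the inhibitory side, *Gad1*, the enzyme that makes most GABA, rose by 0.30 (SE 0.05, limma adjp = 0.000868), from 13.07 ± 0.09 to 13.37 ± 0.11 (SD, *n* = 6 each), without overlap. *Kcnc1*, a potassium channel of fast-spiking interneurons, rose by 0.17 (SE 0.05). The neuropeptide genes *Cort* and *Crh* fell by 0.46 (SE 0.10) and 0.44 (SE 0.08, limma adjp = 0.000903). In the list of interneurons and neuropeptides, 8 of 29 fell and 2 rose. Of 17 GABA-A receptor genes, 4 rose and 1 fell, near the 24.6% called over all genes, and 2 rather than 4 rose without WT 1-month replicate 1. The gene that fell was *Gabra6*, described with the cerebellar genes below. *Gabra5*, an extrasynaptic subunit, rose by 0.31 (SE 0.09, limma adjp = 0.0204).

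Clustered protocadherins, which give neurons combinatorial surface identities, rose more often than they fell. Of 58 tested, 18 rose and 6 fell, with a median difference of 0.06. *Pcdhb8* had a 1-month range of 5.38 to 5.96 (median 5.75) and a 6-month range of 6.11 to 6.64 (median 6.38), a difference of 0.65 (SE 0.11, limma adjp = 0.000893). *Pcdhb9* rose by 0.49 (SE 0.09) and *Pcdhb22* fell by 0.32 (SE 0.08). *Pcdhb1*, close to the floor, was at 2.21 to 3.27 at 1 month and at 3.45 to 4.09 at 6 months. Members of this family are similar in sequence and some share exons, so reads may be split between them.

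Of 35 autism risk genes, 5 rose and 2 fell, against 12.3% in each direction over all genes, so that the list did not exceed the background of 24.6%. *Ash1l*, a histone methyltransferase, rose by 0.27 (SE 0.04, limma adjp = 0.000447). *Ctnnb1*, beta-catenin, fell by 0.27 (SE 0.03, limma adjp = 4.63e-05). In both genes the 2 ages did not overlap.

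Ribosomal protein genes rose more often than they fell, by small amounts. Of 78 tested, 27 rose, 3 fell and 48 were not called, with a median difference of 0.12. The rises numbered 21 without WT 1-month replicate 1 and 35 without WT 1-month replicate 5. *Rpl14* was at 10.94 to 11.18 (median 11.06) at 1 month and at 11.27 to 11.42 (median 11.32) at 6 months, a difference of 0.27 (SE 0.04, limma adjp = 0.000607), and *Rps3a1* rose by 0.26 (SE 0.04). *Rps2* fell by 0.20 (SE 0.05). Ribosomal protein genes have many pseudogene copies, so their values are uncertain.

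Nuclear-encoded genes of oxidative phosphorylation were called about as often as all genes (24.6%), with 16 falls and 5 rises among 81 tested. Without WT 1-month replicate 5 there were 13 falls and 3 rises. *Atp5g1*, which encodes the c subunit of ATP synthase, fell by 0.31 (SE 0.04, limma adjp = 5.29e-05), and *Uqcr11*, a subunit of complex III, by 0.32 (SE 0.06). *Ndufv1*, a core subunit of complex I, rose by 0.16 (SE 0.03, limma adjp = 0.00407).

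Genes of folding in the endoplasmic reticulum and of the unfolded protein response fell more often than they rose. Of 30 genes, 10 fell, 1 rose and 19 were not called, against 12.3% of all genes in each direction. *Hspa5*, the chaperone BiP, had a 1-month range of 13.15 to 13.52 (median 13.42) and a wider 6-month range of 12.39 to 13.48 (median 12.81), a difference of −0.49 (SE 0.15, limma adjp = 0.0332). *Sdf2l1* and *Pdia4* fell by 0.64 (SE 0.18) and 0.50 (SE 0.13). The gene that rose was *Atf4*, a transcription factor of the integrated stress response (0.22, SE 0.05, limma adjp = 0.0073). The 6-month mice overlapped the 1-month mice in every one of the 11.

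Some genes follow the hour, handling or state of an animal at death, and the hour of collection is not given in the sources used here. Of 21 clock genes, 6 rose and none fell, against 12.3% of all genes in each direction, and 1 fell without WT 1-month replicate 1. *Bhlhe41*, a repressor of the clock, was at 9.86 to 10.05 (median 9.93) at 1 month and at 10.21 to 10.73 (median 10.56) at 6 months, a difference of 0.58 (SE 0.07, limma adjp = 5.09e-05). Its paralog *Bhlhe40* was higher by 0.44 (SE 0.15, limma adjp = 0.0501), a call lost without WT 1-month replicate 5 or 6 or WT 6-month replicate 2 (limma adjp = 0.11, 0.1003 and 0.102). *Ciart*, another repressor, was higher by 0.42 (SE 0.14, limma adjp = 0.0448), a call lost without WT 6-month replicate 6 (limma adjp = 0.106). *Arntl*, an activator of the clock, differed by −0.10 (SE 0.07, limma adjp = 0.347).

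The clock activators bind the E-box CACGTG, which reads the same on both strands. It was in a promoter of 8.09% of the 27025 genes and of 5 of the 18 clock genes that matched the promoter table. Of 5 matched clock genes that rose, *Bhlhe41* and *Ciart* held it, and their promoters are shown with the E-box in capitals. *Bhlhe41* (chr6:145865371-145865670) and *Ciart* (chr3:95882179-95882478) are both on the minus strand (RefSeq, GRCm38.p6). The letters occurred at 1 place in *Bhlhe41* and at 3 places in *Ciart*.
Bhlhe41: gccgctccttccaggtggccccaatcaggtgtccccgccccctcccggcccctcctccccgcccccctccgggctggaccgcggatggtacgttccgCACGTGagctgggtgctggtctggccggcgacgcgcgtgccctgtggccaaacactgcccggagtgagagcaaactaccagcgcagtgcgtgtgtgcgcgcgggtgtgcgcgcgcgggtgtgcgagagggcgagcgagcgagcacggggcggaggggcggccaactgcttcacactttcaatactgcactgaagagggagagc
Ciart: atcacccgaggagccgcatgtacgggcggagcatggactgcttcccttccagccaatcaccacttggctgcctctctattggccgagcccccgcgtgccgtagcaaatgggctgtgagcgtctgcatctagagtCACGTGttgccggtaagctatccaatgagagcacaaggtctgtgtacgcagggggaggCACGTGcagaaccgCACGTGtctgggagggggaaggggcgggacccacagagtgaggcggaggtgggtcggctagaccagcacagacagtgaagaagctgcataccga

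Of 27 immediate early genes, 3 rose and 1 fell, fewer than the 24.6% called over all genes. *Fos* was at 8.92 to 10.29 (median 10.08) at 1 month and at 9.51 to 10.99 (median 10.59) at 6 months. Its difference of 0.46 (SE 0.24, limma adjp = 0.214) passed the threshold without WT 6-month replicate 5 (0.64, limma adjp = 0.0626). *Nptx2*, a synaptic pentraxin, fell by 0.49 (SE 0.15, limma adjp = 0.0313).

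Of 20 glucocorticoid-induced genes, 4 rose and 2 fell, near the 24.6% called over all genes. *Plin4*, a lipid droplet protein, had a 1-month range of 5.65 to 6.79 (median 6.37) and a 6-month range of 6.58 to 9.20 (median 6.98), a difference of 1.18 (SE 0.37, limma adjp = 0.0353). *Sgk1*, a hormone-induced kinase, rose by 0.61 (SE 0.18) and *Pdk4*, a kinase that restrains glucose oxidation, by 0.57 (SE 0.14). *Tgfb1i1* and *Mt2*, a metallothionein, fell by 0.49 (SE 0.08) and 0.44 (SE 0.11), and *Fkbp5*, a co-chaperone of the glucocorticoid receptor, differed by −0.08 (SE 0.12, limma adjp = 0.708).

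Of 18 heat shock and cold-induced genes, 4 rose and none fell, against 12.3% of all genes in each direction. *Hspa1a*, the inducible Hsp70, was at 6.69 to 6.89 (median 6.79) at 1 month and at 7.01 to 8.07 (median 7.57) at 6 months, a difference of 0.77 (SE 0.14, limma adjp = 0.0013). *Cirbp*, a cold-induced RNA-binding protein, rose by 0.38 (SE 0.08). The near-identical copy *Hspa1b* makes the value of *Hspa1a* uncertain. The SD of *Hspa1a* was 0.09 at 1 month and 0.40 at 6 months.

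Markers of neighbouring brain regions varied between mice within each age. Of 15 hippocampal genes, 6 rose and 1 fell (2 without WT 1-month replicate 5), and their mean was 7.70 to 8.27 at 1 month and 7.96 to 8.53 at 6 months. *Dsp*, desmoplakin of the dentate gyrus, ranged from 5.74 to 8.10 at 1 month and from 7.64 to 8.68 at 6 months (1.25, SE 0.34, limma adjp = 0.0163). *C1ql2* of mossy fibres and *Lct* were higher by 0.84 (SE 0.20) and 0.82 (SE 0.23), and *Npnt* was lower by 0.49 (SE 0.06). No striatal gene of 18 and no choroid plexus gene of 15 was called, with medians of 0.26 and 0.29. The choroid plexus median was 0.10 without WT 1-month replicate 1, and the striatal median was 0.44 without WT 1-month replicate 5. Their means spread over 8.11 to 9.82 (striatum) and 5.22 to 7.46 (choroid plexus) at 1 month, against 8.55 to 9.81 and 5.36 to 7.90 at 6 months, and the dopamine receptor genes *Drd1* and *Drd2* differed by 0.36 (SE 0.27) and 0.54 (SE 0.39). In the list of thalamus, midbrain and hindbrain, 3 of 16 genes fell and none rose, against 12.3% of all genes in each direction.

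Cerebellar genes, a list of 11 added after the values were seen, showed 1 mouse apart. Their mean was 8.31 in WT 1-month replicate 1 and at most 5.99 in the 6-month mice. Over all 6 of the 1-month mice the median was 6.39 and the lowest 5.88. *Gabra6*, the GABA-A subunit of cerebellar granule cells, was at 8.62 in that mouse, at 3.45 to 5.58 in the other 1-month mice and at 2.77 to 4.16 at 6 months. Its difference of −1.71 (SE 0.66, limma adjp = 0.0862) was −1.0 (limma adjp = 0.117) without that mouse, and it was also not called without any one of WT 1-month replicates 3 and 4 and WT 6-month replicates 2, 3, 4 and 5 (limma adjp = 0.126 to 0.145). *Fat2* fell by 1.73 (SE 0.56, limma adjp = 0.0425), and by 1.11 without that mouse (limma adjp = 0.029). Over the list, 6 genes fell, 5 without that mouse and 8 without WT 1-month replicate 5. *Cnpy1* fell by 1.51 (SE 0.46, limma adjp = 0.0318). The part of the dissection in these differences was not tested.

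The same comparison in *Chd8* V986*/+ mice, 6 at each age and none shared with the WT comparison, gave 4609 genes of 17207 (26.8%), 2409 higher and 2200 lower. Over the 17070 genes tested in both, 2806 genes were called in the same direction, or 66.3% of the WT calls and 61.0% of the V986*/+ calls, and 4 in opposite directions. Of the genes called in WT mice, 96.1% had the same sign in V986*/+ mice, against 76.2% of all genes. Pearson's *r* between both sets of differences was 0.65 across genes, which are not independent replicates. The genes called higher in WT mice had a median difference of 0.23 in WT and 0.19 in V986*/+ mice, and those called lower had −0.26 and −0.20. These genes were picked by their WT values, so a smaller median in the other genotype carries no test.

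Of the lists that changed in WT mice, V986*/+ mice had 15 falls and no rise among the 25 oligodendrocyte precursor genes, 17 falls and 9 rises in myelin, 18 falls and 1 rise in the cell cycle and 16 falls and 1 rise among collagens. Among the 26 microglial genes 1 fell and 2 rose, against 9 and 1 in WT mice, or 6 and 1 without WT 1-month replicate 5. Of all genes tested in V986*/+ mice, 14% were called higher and 12.8% lower. *Il33* rose by 1.54 in V986*/+ mice, *Neat1* by 1.32 and *Xdh* by 1.59, and *Gpr17* fell by 1.43. *Col3a1* differed by −1.09 (limma adjp = 0.0267) against −2.14 in WT mice, and *Cldn5* was higher by 0.21 (limma adjp = 0.528) in V986*/+ mice but lower by 0.58 in WT mice. The median of the 20 meningeal genes was 0.36 in V986*/+ mice against −0.23 in WT mice, and at 1 month their mean ranged from 6.73 to 8.46 in V986*/+ mice. The test of the difference itself called none of these. In limma over the 24 mice, 0 of 17236 genes (0%) were called for a change from 1 to 6 months that differed between the genotypes. Over these genes, 797 had an unadjusted *p* below 0.05, and the smallest adjp was 0.732. A gene that was not called is not shown to change equally in both genotypes. For *Col3a1* the difference of the changes was 1.04 (SE 0.43, limma adjp = 0.999), and for *Cldn5* 0.80 (SE 0.28, limma adjp = 0.999).

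**Figure D4:**
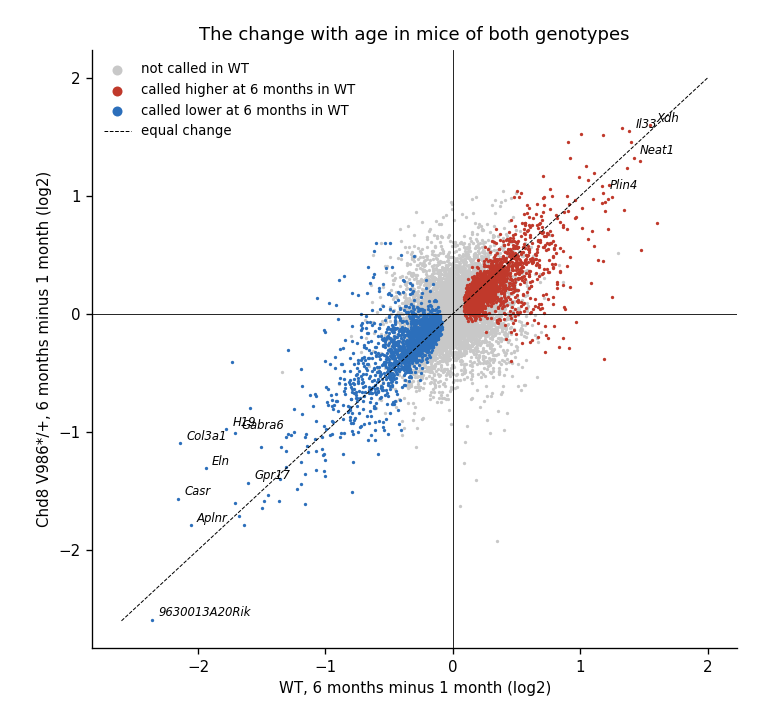
The difference between 6 and 1 month (log2 scale) in 12 Chd8 V986*/+ mice is plotted against that in 12 WT mice for 17070 genes tested in both, coloured by the WT call, with a dashed line of equal change. Genes called in WT mice had the same sign in V986*/+ mice in 96.1% of cases, and Col3a1 lies at −2.14 in WT and −1.09 in V986*/+ mice.

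The values at 12 months stand beside those at 6 months without an overlap test, since the comparisons share the 6-month mice. From 6 to 12 months, 1 of 17283 genes (0.00579%) was called by limma, *9630013A20Rik* (−0.90, adjp = 0.065), while 1167 had an unadjusted *p* below 0.05. The median SD over genes was 0.184 at 12 months, against 0.126 at 1 month and 0.128 at 6 months. *Gpr17* was at 10.30 ± 0.16 at 6 months and 10.25 ± 0.21 at 12 months (SD, *n* = 6 each), *Il33* at 10.87 ± 0.09 and 11.05 ± 0.08, and *Xdh* at 8.14 ± 0.44 and 8.40 ± 0.37. *Top2a* was at 5.55 ± 0.24 and 4.93 ± 0.47.

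The genes that fell stood at different levels at E14.5, before birth. *Top2a*, *Marcksl1* and *Col3a1*, at 13.09, 14.88 and 12.30 at E14.5, were already far lower at 1 month, at 7.0, 11.75 and 7.95. *Gpr17* and *Enpp6* were low at E14.5, at 6.74 and 3.18, and stood highest at 1 month among the 4 ages, at 11.91 and 9.49. *Eln* was at 8.65 at E14.5, close to its 1-month mean of 8.59. *9630013A20Rik* and *Casr* also peaked at 1 month, at 7.65 and 6.66 against 2.49 and 3.83 at E14.5. The courses are drawn in the plot of expression by age.

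**Figure D5:**
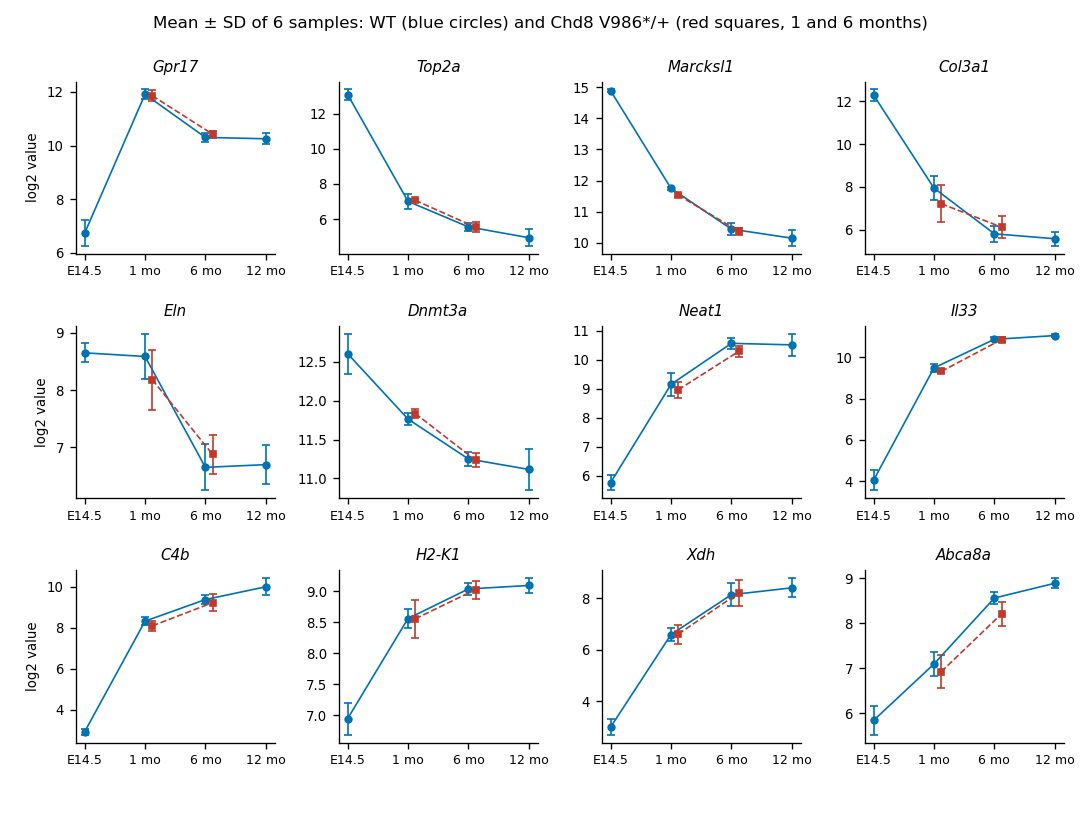
Mean ± SD (n = 6) of the VST value (log2 scale) of 12 genes at E14.5, 1, 6 and 12 months in WT mice (blue circles) and at 1 and 6 months in Chd8 V986*/+ mice (red squares, dashed), with the ages evenly spaced and not to scale. The WT mean of Gpr17 was highest at 1 month, those of Top2a, Marcksl1 and Dnmt3a were lower at each later age, and those of Il33, C4b and Xdh were higher at each later age.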

How the data were processed

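PolyA RNA of dissected cortex was sequenced by the authors as paired-end reads. The authors filtered and trimmed the reads, aligned them to mm9 with STAR 2.5.2b, quantified transcripts with Salmon 0.11.3 and normalized them with DESeq2 1.22.2 (listed as DESeq in the submitters' processing notes) in a model with a batch correction. The deposited table holds VST values on a log2 scale for 24444 genes and 48 samples, in which any difference between replicates 1 to 3 and 4 to 6 had already been removed (means equal to within 3.38e-14). Since read counts per gene are not known, precision is given by the SD between 6 mice, without counting intervals. Depth per sample entered only as a covariate.

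Groups came from the sample labels. Genes whose mean over the 12 samples was at least 0.5 above the floor, 2.1433, were tested with limma 3.58.1 in R 4.3.3 with an intensity trend, and called at adjp below 0.1. The scripts were tested on simulated data first. The p-values measure the spread between mice of separate groups. Gene lists and the comparison were chosen with earlier results of these data known. Named genes are the 12 largest rises and falls called without overlap of the mice and with a mean at least 1 above the floor at an age, and, per list, up to 3 called genes in each direction and the first 2 members in list order. Also named are *Chd8*, markers of cortex that check the tissue, and *Gbp2* and *Ifih1*, chosen after their values were seen. Some genes that this rule names are not reported here. Coordinates of genes are those of mm9 (GENCODE vM1).

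Alternatives were a replicate block, the set of replicates as a covariate, one fit of all 48 samples, other filters, a limma fit that dropped the trend or used robust variances, quantile normalization, centring on the median gene, read depth as a covariate, stricter thresholds and leaving out each mouse. Python 3.11.15, numpy 2.4.6, pandas 2.3.3 and matplotlib 3.10.9 were used.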

Additional observations from a re-analysis of the deposited data

Results flagged for a closer look

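Among the genes named above, 298 groups of 6 mice (149 genes at 2 ages) were tested by Dixon's ratio for a mouse far from the others. There were 16 found, close to the share of about 1 in 20 groups that chance alone gives. Of these, 5 were WT 1-month replicate 5, the mouse that stood apart on the second principal component. It was the highest for *H19* (7.21, next 5.39), *Pdgfra* (11.23, next 11.09) and *Grin3a* (11.03, next 10.81) and the lowest for *Pcdhb1* (2.21, next 2.93) and *Fos* (8.92, next 10.02). WT 6-month replicate 5 was the highest for *Mog* (10.41) and *Gbp2* (7.19) and the lowest for *9330199G10Rik* (3.19).

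The remaining 8 were spread over other mice. At 1 month, replicate 6 was the highest for *7630403G23Rik* (2.73) and *Ptgs2os2* (3.21), replicate 1 the highest for *Fbxw15* (2.88), all genes near the floor in the other 1-month mice, and replicate 4 the lowest for *Slc4a1* (4.04). At 6 months, replicate 3 was the highest for *Hapln2* (8.88), replicate 2 for *Tgfb1i1* (8.25) and replicate 1 for *Ndufv1* (11.80), and replicate 4 was the lowest for *Ciart* (7.81).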

How the results depend on the processing

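The count of genes called between 1 and 6 months, 4242, stayed within 3233 (one fit of all 48 samples) and 4916 (replicate block) under the 10 other models, filters and scalings, and between 3508 and 4274 when 1 mouse was left out. It was 3112 at adjp below 0.05 and 671 where a difference of at least 0.5 was also required. The single call between 6 and 12 months became 0 with the replicate block, with the set of replicates as a covariate and at adjp below 0.05, and 7 in one fit of all 48 samples. No gene was called in the test of the difference between genotypes under any model, filter or scaling. The methods give no pairing by replicate number, and same-numbered deviations correlated at −0.07 to 0.16, with only 1 of 6 above 0.1. Weak correlations cannot show that no pairing was present. With the replicate block, *Fos* (0.46, adjp = 0.0181) and *Drd2* (0.54, adjp = 0.0635) passed the threshold and no named gene lost its call. Of 3272 values of named genes under the alternatives, 3217 kept their direction and their side of the threshold, and 50 lost their call. One fit of all 48 samples lost 10 calls, among them *Nefh* (adjp = 0.268), *Grin3a* (0.227) and *Slc17a7* (0.213). Robust variances lost *Plin4* (0.109), *Hspa5* (0.104) and *Fat2* (0.123), and read depth as a covariate lost *P2ry12* (0.103). The sign turned for *Acan* without WT 1-month replicate 3 (−9.84e-05, the range when 1 mouse was left out reaching 0.14) and for *Chd8* without WT 1-month replicate 6 (−0.0053, reaching 0.059), neither of them called. The cause was not tested in any case. Values near the floor and the unknown depth of single genes limit what could be detected among weakly expressed genes.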
